A study of Mus musculus with 9 samples.

Results

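The transcripts described here are those of the nuclear Nduf genes, which encode subunits and assembly factors of respiratory complex I, measured in mouse hearts of 3 genotypes. A gene was taken where a probe set carried 1 annotation symbol only and that symbol began with Nduf, and the probe set with the highest mean signal stood for the gene. This gave 42 genes out of 22180 genes with a probe set of 1 symbol. The rule itself used no difference between genotypes, although earlier results of these data were known when the members were chosen. All 42 lay above the signal required for testing, although Ndufs5 did so narrowly (mean log2 signal 5.25 against a limit of 5.21). The symbol covers more than complex I, since Ndufa4 is now assigned to complex IV and Ndufa4l2 is its paralog, so 32 of the 42 genes encode complex I subunits and 8 encode assembly factors. Ndufs6, Ndufb2 and Ndufb4 had only probe sets shared with another gene and give no value here, Ndufb1 was not analysed here, and of the 7 mitochondrially encoded subunits 0 had a probe set of 1 symbol.

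Complex I is the entry point of the respiratory chain: it oxidises NADH in its peripheral arm, passes the electrons along iron-sulfur clusters to ubiquinone, and pumps protons through its membrane arm. Core subunits carry out the chemistry, accessory subunits surround and stabilise them, and assembly factors build the arms and then leave the finished enzyme. The heart, which depends on oxidative metabolism, holds large amounts of the complex in its cardiomyocytes.

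Hearts of mice aged 2 months were snap frozen and their total RNA was put on arrays singly, giving 3 hearts of each genotype: wild type, Col4a3-/-, and Col4a3-/-OPN-/-. Col4a3-/- mice lack a chain of the type IV collagen of basement membranes and serve to model Alport syndrome, a hereditary disorder of the kidney, and the third genotype lacks osteopontin (OPN, encoded by Spp1) as well. An osteopontin knockout with intact Col4a3 was not among the samples analysed here, so loss of osteopontin is seen only on the Col4a3-/- background. Sex, strain and the makeup of the alleles are not given in the sources used here, and the p-values measure the spread between these hearts.

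Signals are log2 values on an Affymetrix gene array, so a difference of 1 means a doubling of signal, and a level is compared only between hearts and never between genes. Per the labels, RNA was labelled with a kit made for small RNA, although the probe sets are those of a whole-transcript array, and the values are read as transcript signals with that reservation. The array medians ran from 5.18 to 5.24 and no array was a copy of another (Pearson's r 0.936 to 0.986 across probe sets). The Col4a3 probe set was too dim to be tested (4.87 to 5.52 over the 9 hearts) and no probe set was named Spp1, so neither targeted gene checks the labels. All 12 cardiomyocyte markers were measured in all hearts, with a mean log2 level of 11.7 to 11.8 in 8 hearts and 11.4 in Col4a3-/- replicate 3. Several hearts stood apart by other markers. Xist was high (7.59 to 8.56) and Y-linked Eif2s3y low (4.60 to 4.75) in Col4a3-/- replicates 1 and 3 and in Col4a3-/-OPN-/- replicate 2, and the reverse held in the other 6 hearts. The atrial transcript Bmp10 was 5.72 and 7.40 in Col4a3-/- replicates 1 and 3 against 9.17 to 9.86 elsewhere. Brown fat Ucp1 was 11.1 and airway Scgb1a1 12.2 in Col4a3-/- replicate 2, and Scgb1a1 was 9.81 and 9.52 in Col4a3-/-OPN-/- replicates 1 and 3 against 4.54 to 6.10 in the remaining hearts. Of the 8 airway and lung markers listed, only 3 were bright enough to be tested. All 3 were highest in Col4a3-/- replicate 2 and above their mean over the 9 hearts in Col4a3-/-OPN-/- replicate 1. They were divided in Col4a3-/-OPN-/- replicate 3, where 2 were above that mean and 1 was the lowest of the 9. In bulk tissue, fewer cells of a type and less RNA per cell cannot be told apart.

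Transcription of these genes is classically tied to the factors NRF1, GABPA, ERR and YY1 and to GC boxes bound by Sp1. RefSeq start sites on GRCm38.p6 were at hand for 37 of the 42 genes, and the 250 bases before each start were searched on both strands for exact matches. NRF1 letters (GCGC, any base, TGCGC) were found before 5 of 37 genes (13.5%, against 3.74% of 32851 promoters in the table), namely Ndufa5, Ndufa8, Ndufa11, Ndufaf4 and Ndufs5. GABPA letters (CCGGAAG) were found before 5 (13.5% against 6.91%), namely Ndufaf1, Ndufaf8, Ndufb6, Ndufb7 and Ndufs3. The ERR letters (AAGGTCA) occurred before Ndufs5 alone (2.7% against 4.08%), the YY1 letters (AAGATGGC) before 0 of 37 (1.56% of all promoters), and a GC box (GGGCGG) before 18 (48.6% against 32.7%). Matches of different motifs overlapped in 1 promoter, that of Ndufs3 (GABPA letters and a GC box). These are descriptions of letters and not of binding. Printed with matches in capitals, 5′ to 3′ on the coding strand, are the promoters of the X-linked genes Ndufa1 (chrX:37191239-37191488, minus strand) and Ndufb11 (chrX:20617620-20617869, minus strand), the genes with the smallest p-values, and of Ndufa11 (chr17:56717512-56717761, plus strand) and Ndufaf4 (chr4:24897833-24898082, plus strand), a membrane subunit and an assembly factor with the NRF1 letters. The capitals are a reversed GC box in Ndufa1, the NRF1 letters in Ndufa11, and the NRF1 letters followed by overlapping GC boxes in Ndufaf4. Ndufb11 held none of the 5 motifs.
Ndufa1: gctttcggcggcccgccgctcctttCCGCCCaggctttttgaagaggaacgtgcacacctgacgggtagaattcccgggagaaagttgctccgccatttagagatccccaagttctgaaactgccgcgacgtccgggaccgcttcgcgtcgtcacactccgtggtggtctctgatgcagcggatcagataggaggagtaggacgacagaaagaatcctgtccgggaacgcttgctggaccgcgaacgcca
Ndufb11: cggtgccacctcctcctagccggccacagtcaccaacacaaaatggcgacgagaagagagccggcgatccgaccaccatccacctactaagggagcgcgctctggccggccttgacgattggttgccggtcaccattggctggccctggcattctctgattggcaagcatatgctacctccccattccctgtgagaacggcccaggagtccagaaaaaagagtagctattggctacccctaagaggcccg
Ndufa11: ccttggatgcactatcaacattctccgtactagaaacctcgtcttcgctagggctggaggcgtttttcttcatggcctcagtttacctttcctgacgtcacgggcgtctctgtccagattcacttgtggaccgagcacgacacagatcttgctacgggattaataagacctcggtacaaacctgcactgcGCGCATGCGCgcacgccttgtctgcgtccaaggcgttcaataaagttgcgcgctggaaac
Ndufaf4: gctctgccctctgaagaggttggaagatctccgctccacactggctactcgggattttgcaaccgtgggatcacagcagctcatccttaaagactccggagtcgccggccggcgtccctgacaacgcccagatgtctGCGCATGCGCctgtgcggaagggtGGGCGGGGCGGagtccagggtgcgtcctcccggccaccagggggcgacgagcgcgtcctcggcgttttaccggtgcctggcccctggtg

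The first comparison, Col4a3-/- against wild type, asks how complex I transcripts stand in the Alport heart. No member passed the limma test (adjusted p under 0.05 over 13650 probe sets) and the smallest adjusted p was 0.542, for Ndufa1. The background was the same, with 0% of all probe sets called. At an unadjusted p under 0.05, 1 of 42 members was higher and 0 were lower, against 2.39% and 5.96% of all probe sets (8.35% in either direction). The median log2 difference over the members was -0.02, as it was over all probe sets, with 15 members positive and 27 negative (45% of all probe sets were positive). Leaving out Col4a3-/- replicate 1 made the members' median -0.15, and leaving out Col4a3-/- replicate 3 made it 0.062.

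The second comparison, Col4a3-/-OPN-/- against Col4a3-/-, asks what loss of osteopontin adds. Of the 42 members 0 were called, and 0.044% of all probe sets were. The smallest adjusted p was 0.326, again for Ndufa1. Ndufa1 and Ndufb11 were lower at an unadjusted p under 0.05 (5.03% of all probe sets were), and 0 members were higher (8.58%). Of the members 21 were positive and 21 negative, around a median of 3.6e-05 against 0.04 for all probe sets. When each array was centred on its median 27 of 42 were positive, and the share over all probe sets in that fit is not given here. This comparison shares its Col4a3-/- hearts with the first, so a high or low Col4a3-/- heart moves the values of both in opposite directions.

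In the third comparison, Col4a3-/-OPN-/- against wild type, 0 members and 0% of all probe sets were called, with a smallest adjusted p of 0.999. At an unadjusted p under 0.05 there were 0 members and 3.68% of all probe sets (1.89% higher and 1.79% lower). The median was -0.05, with 14 positive and 28 negative members, against 0.01 for all probe sets. Tested subunits of complexes II to V likewise had 14 positive and 28 negative (median -0.03). Mitochondrial ribosomal proteins had 24 positive and 46 negative (median -0.06). The moderated F-test for any difference among the 3 genotypes called 0 members and 0.0147% of all probe sets. Ndufa1 was the only member with an F-test p under 0.05 (unadjusted 0.0428, limma adjusted 0.520), where 9.3% of all probe sets had one.

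The intervals show what size of change these arrays could have missed. The 95% intervals of the limma differences stayed within 1.5-fold either way for 35, 36 and 38 of the 42 members in the 3 comparisons in turn, and within 2-fold for 41, 41 and 42. Half-widths ran from 0.17 for Ndufa10 to 0.69 for Ndufa4l2, with a median of 0.33 log2 units. The exception beyond 2-fold in the first 2 comparisons was Ndufa4l2.

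**Figure D1:**
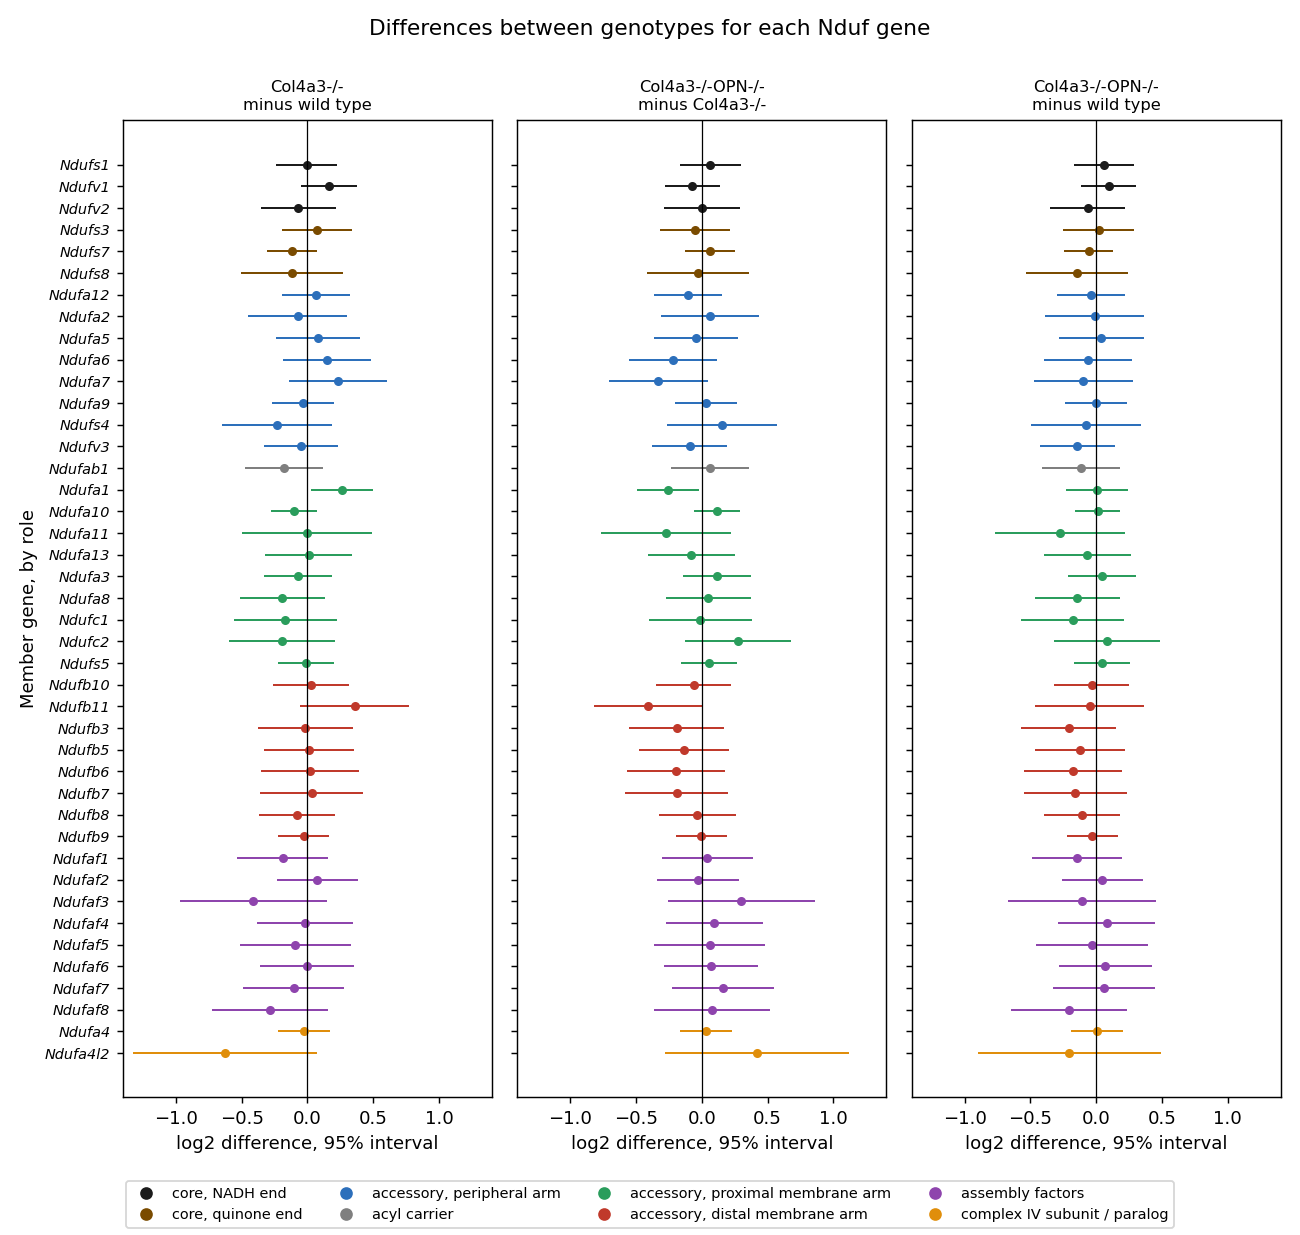
Each point is the log2 difference of 1 gene between 2 genotypes, with its 95% interval from limma, coloured by role. Nearly all intervals span 0, the exceptions being Ndufa1 in the left and middle panels and Ndufb11 in the middle panel, before any adjustment for the number of probe sets.

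The core subunits of the NADH-oxidising end lay close together across genotypes. Ndufv1, which binds NADH and flavin, had log2 signals of 10.58, 10.74 and 10.74 in wild type replicates 1, 2 and 3, an order kept for all values listed below. Its signals were 10.87, 10.89 and 10.80 in Col4a3-/- hearts and 10.74, 10.74 and 10.85 in Col4a3-/-OPN-/- hearts. All 3 Col4a3-/- hearts were above all 3 wild type hearts, a lack of overlap in this direction that 4.58% of all probe sets showed. The limma difference was 0.17 on the log2 scale (SE 0.09, adjusted p = 0.653), or 1.12-fold. The Col4a3-/-OPN-/- hearts also sat above the wild type hearts (7.55% of all probe sets), by margins too small to show at 2 decimals for replicates 1 and 2, with a difference of 0.09 (adjusted p = 0.999).

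Ndufv2, an iron-sulfur protein beside Ndufv1, had log2 signals of 11.12, 11.05 and 10.96 in wild type, 11.25, 10.96 and 10.71 in Col4a3-/- and 10.95, 11.02 and 10.96 in Col4a3-/-OPN-/- hearts. The highest and the lowest of the 9 values were both Col4a3-/- hearts, replicates 1 and 3. Ndufs1, the largest subunit and carrier of several iron-sulfur clusters, read 10.52, 10.50 and 10.64 in wild type, 10.59, 10.52 and 10.53 in Col4a3-/- and 10.61, 10.48 and 10.75 in Col4a3-/-OPN-/- hearts. Its groups overlapped in every comparison, with a Col4a3-/- minus wild type difference of -0.01 (95% interval -0.23 to 0.22).

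At the ubiquinone-reducing end, Ndufs7, whose cluster hands electrons to ubiquinone, had log2 signals of 11.84, 11.70 and 11.71 in wild type, 11.69, 11.66 and 11.55 in Col4a3-/- and 11.65, 11.75 and 11.68 in Col4a3-/-OPN-/- hearts. All 3 Col4a3-/- values lay below all 3 wild type values (7.9% of all probe sets did), and the limma difference was -0.12 log2 units (SE 0.08, adjusted p = 0.722). Ndufs3, a core subunit that helps form the quinone-binding region, ran from 7.33 to 7.54 over the 9 hearts. Its values were 7.33, 7.43 and 7.39 in wild type, 7.54, 7.36 and 7.47 in Col4a3-/- and 7.38, 7.42 and 7.42 in Col4a3-/-OPN-/- hearts, with overlap throughout.

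Ndufs8, which carries a pair of iron-sulfur clusters ahead of Ndufs7, was the widest of the core genes. It read 10.71, 10.77 and 10.57 in wild type, 10.95, 10.44 and 10.31 in Col4a3-/- and 10.27, 10.73 and 10.61 in Col4a3-/-OPN-/- hearts. The top value was Col4a3-/- replicate 1, and Col4a3-/- replicate 3 and Col4a3-/-OPN-/- replicate 1 were the lowest. Its differences were -0.12, -0.03 and -0.15 in the 3 comparisons.

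Among the 8 peripheral-arm accessory subunits, 4 were positive and 4 negative in Col4a3-/- against wild type, and 7 of 8 were negative in Col4a3-/-OPN-/- against wild type (median -0.05). Ndufa7 had log2 signals of 8.69, 8.62 and 8.52 in wild type, 9.02, 8.68 and 8.83 in Col4a3-/- and 8.15, 8.71 and 8.68 in Col4a3-/-OPN-/- hearts. Col4a3-/- replicate 1 was the highest heart and Col4a3-/-OPN-/- replicate 1 the lowest, while the other 2 Col4a3-/-OPN-/- hearts lay close to the wild type. The log2 differences were 0.23 (limma adjusted p = 0.733) and -0.33 (adjusted p = 0.420) in the first 2 comparisons.

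Ndufs4, which holds the NADH-oxidising module in place, had the lowest difference of its group in Col4a3-/- against wild type, at -0.23 (adjusted p = 0.761). Its Col4a3-/- values averaged 9.53 ± 0.43 (SD, n = 3) against 9.76 ± 0.10 in wild type and 9.68 ± 0.12 in Col4a3-/-OPN-/- hearts. Ndufv3, a small subunit next to Ndufv1, had log2 signals of 8.48, 8.19 and 8.30 in wild type, 8.36, 8.26 and 8.19 in Col4a3-/- and 8.12, 8.24 and 8.18 in Col4a3-/-OPN-/- hearts. Its difference from wild type in the Col4a3-/-OPN-/- hearts was -0.14 (SE 0.13), with 1 wild type heart inside the range of the other group. The remaining members, Ndufa2, Ndufa5, Ndufa6, Ndufa9 and Ndufa12, had absolute differences of at most 0.22 in all 3 comparisons by the probe sets used. Ndufab1, the mitochondrial acyl carrier protein found in both arms, stood at -0.18, 0.06 and -0.12.

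The proximal membrane arm holds the member with the smallest p. Ndufa1, a small membrane subunit needed for assembly and encoded on the X chromosome, had log2 signals of 10.44, 10.62 and 10.68 in wild type hearts (10.58 ± 0.12, SD, n = 3). Its signals were 10.97, 10.83 and 10.74 in Col4a3-/- (10.85 ± 0.12) and 10.63, 10.59 and 10.55 in Col4a3-/-OPN-/- hearts (10.59 ± 0.04). The 3 Col4a3-/- hearts were the 3 highest of the 9, above every heart of both other genotypes. Lack of overlap in these directions was found for 4.58% and 6.48% of all probe sets. The log2 difference was 0.26 in Col4a3-/- against wild type (SE 0.10, unadjusted p = 0.0266, limma adjusted p = 0.542), and -0.26 in Col4a3-/-OPN-/- against Col4a3-/- (unadjusted p = 0.0298, limma adjusted p = 0.326). Col4a3-/-OPN-/- and wild type hearts differed by 0.01 (95% interval -0.22 to 0.23). Over 21 ways of processing the first difference ran from 0.17 to 0.32 and the second from -0.31 to -0.17, none past the threshold.

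Ndufa10, a subunit with a nucleoside kinase fold, showed the reverse order at a small size and was the tightest of all members. It read 11.58, 11.68 and 11.56 in wild type, 11.51, 11.49 and 11.51 in Col4a3-/- and 11.62, 11.63 and 11.61 in Col4a3-/-OPN-/- hearts. The 3 Col4a3-/- values lay below all 6 others. The log2 difference was -0.10 from wild type (limma adjusted p = 0.737) and 0.11 in the second comparison (limma adjusted p = 0.542). Lack of overlap in these directions was found for 7.9% and 10.1% of all probe sets. The SD within a genotype was 0.01 in both knockout groups.

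Ndufa11, which sits at the contact of complex I with complex III, had log2 signals of 11.20, 11.05 and 10.80 in wild type, 11.34, 11.06 and 10.65 in Col4a3-/- and 10.27, 11.10 and 10.86 in Col4a3-/-OPN-/- hearts. Col4a3-/-OPN-/- replicate 1 was the lowest heart. The log2 difference of -0.27 from wild type was the most negative of the third comparison, and it was -0.04 without that heart. Ndufc2, a membrane subunit at the base of the arm, read 10.46, 10.40 and 10.50 in wild type, 10.64, 10.33 and 9.81 in Col4a3-/- and 10.48, 10.71 and 10.42 in Col4a3-/-OPN-/- hearts. Col4a3-/- replicate 3 was lowest by far, and the difference of the second comparison, 0.27 (adjusted p = 0.536), was the highest of the arm.

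Of the 9 proximal membrane-arm subunits, 3, 5 and 5 were positive in the 3 comparisons in turn. Ndufa8, on the intermembrane face, was lower in all 3 Col4a3-/-OPN-/- hearts than in all wild type hearts (difference -0.14, adjusted p = 0.999; 5.65% of all probe sets lacked overlap this way). Ndufa8, Ndufa11 and Ndufa12 each had a second, dimmer probe set. That of Ndufa8 had the opposite sign in the first 2 comparisons (0.30 and -0.61). That of Ndufa12 had 0.35 and -0.36 there, against 0.07 and -0.11 for the probe set used. None of these differences had an unadjusted p under 0.05 in limma.

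The distal membrane arm was the only group of several subunits whose members all had 1 sign. All 8 measured subunits were negative in Col4a3-/-OPN-/- against Col4a3-/- (median -0.16) and in Col4a3-/-OPN-/- against wild type (median -0.12), and 0 were called. Of all probe sets 57.7% and 53.1% were positive in these comparisons. Against wild type the differences ran from -0.21 for Ndufb3 to -0.03 for Ndufb9. Leaving out each heart in turn gave medians from -0.16 to -0.08 against wild type. In the second comparison the median was 0.00047 without Col4a3-/- replicate 1 and -0.22 without Col4a3-/- replicate 3. It was 0.06 with Bmp10 as a covariate, which overlaps with genotype. Col4a3-/-OPN-/- replicate 1 lay below all wild type hearts for 8 of 8 of these genes, where 25.1% of all probe sets did.

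Ndufb11, an X-linked single-span membrane subunit, had log2 signals of 6.18, 6.32 and 6.36 in wild type, 6.74, 6.21 and 6.99 in Col4a3-/- and 6.11, 6.24 and 6.36 in Col4a3-/-OPN-/- hearts. Col4a3-/- replicates 1 and 3 were above all other hearts, while replicate 2 was inside the range of the wild type. The log2 difference was 0.36 in Col4a3-/- against wild type (SE 0.18, unadjusted p = 0.0776, limma adjusted p = 0.632), and -0.41 in the second comparison (unadjusted p = 0.0488, limma adjusted p = 0.366). Both high hearts had high Xist and low Bmp10. Xist was high in Col4a3-/-OPN-/- replicate 2 as well, where the Ndufb11 signal was 6.24. With Bmp10 as a covariate, which overlaps with genotype, the differences were 0.0061 and -0.09. Without Col4a3-/- replicate 2 they were 0.58 and -0.63 (limma adjusted p = 0.253 and 0.110). The part of sex or of atrial tissue in these values was not tested.

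Ndufb3 and Ndufb6, further small membrane subunits, differed from Ndufb11 in which heart was the highest. Ndufb3 read 7.90, 7.61 and 7.56 in wild type, 7.93, 7.62 and 7.46 in Col4a3-/- and 7.35, 7.48 and 7.61 in Col4a3-/-OPN-/- hearts. Ndufb6 read 9.21, 9.48 and 9.18 in wild type, 9.65, 9.06 and 9.22 in Col4a3-/- and 8.97, 9.15 and 9.23 in Col4a3-/-OPN-/- hearts. For both genes Col4a3-/- replicate 1 was the highest and Col4a3-/-OPN-/- replicate 1 the lowest heart. Ndufb8 was lower in all Col4a3-/-OPN-/- hearts than in all wild type hearts, at 8.84 ± 0.04 against 8.95 ± 0.03 (SD, n = 3), with an adjusted p of 0.999 in limma. Lack of overlap this way was found for 5.65% of all probe sets. Ndufa8 and Ndufb8 were singled out after their values were seen.

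**Figure D2:**
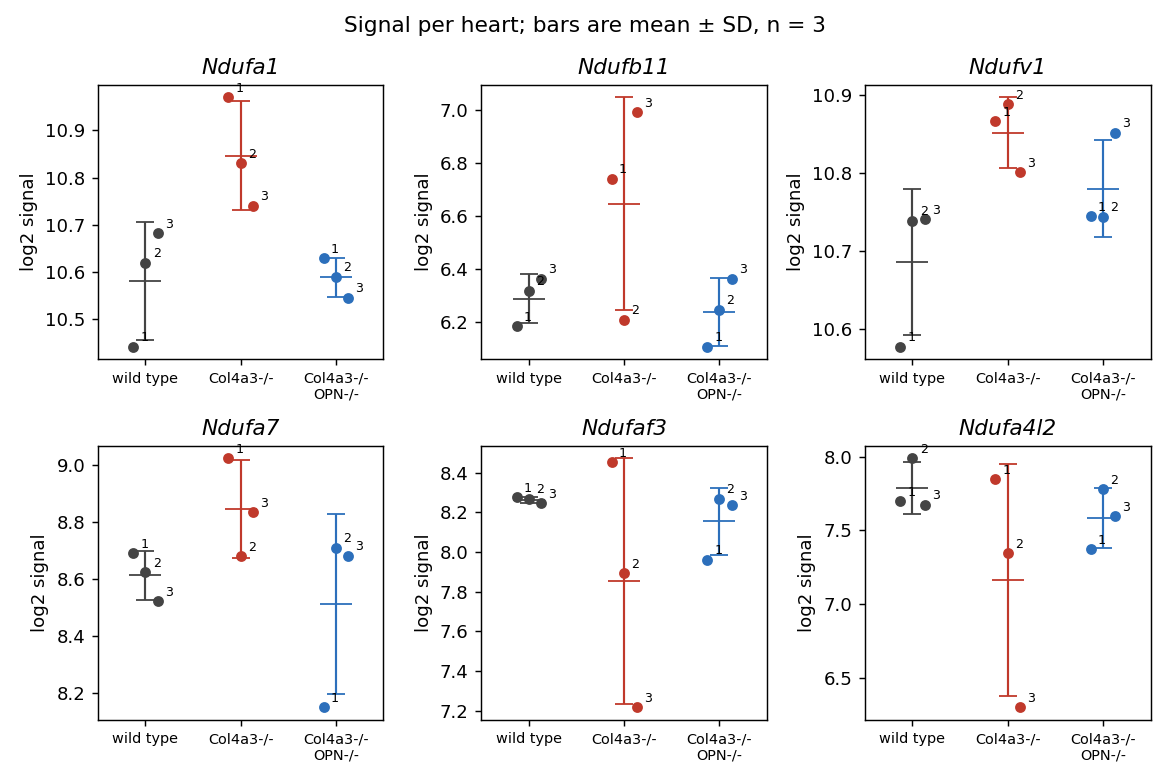
Log2 signal of 6 genes in each heart, with the replicate number beside each point and the mean ± SD (n = 3) as bars; each panel has its own axis. Ndufa1 was highest in the 3 Col4a3-/- hearts, whereas for Ndufaf3 and Ndufa4l2 the Col4a3-/- hearts were the most spread, with replicate 3 lowest.

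The 8 assembly factors named Ndufaf leaned the other way. In Col4a3-/- against wild type 7 of 8 were negative (median -0.10) and in Col4a3-/-OPN-/- against Col4a3-/- 7 of 8 were positive (median 0.07), with 0 called in either. Col4a3-/- replicate 3 was the lowest of the 9 hearts for 7 of the 8, as it was for 26.1% of all probe sets. Without that heart the first median was 0.08 and the second -0.06, so both signs rested on it.

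Ndufaf3, which with Ndufaf4 helps build the ubiquinone module, had log2 signals of 8.28, 8.27 and 8.25 in wild type, 8.45, 7.89 and 7.22 in Col4a3-/- and 7.96, 8.27 and 8.24 in Col4a3-/-OPN-/- hearts. The wild type hearts were nearly equal, and the Col4a3-/- hearts held both the highest and the lowest value. The log2 difference was -0.41 (SE 0.25, limma adjusted p = 0.677), which was -0.09 without Col4a3-/- replicate 3 and -0.71 without replicate 1. Ndufaf4 read 8.55, 8.14 and 8.32 in wild type, 8.62, 8.21 and 8.12 in Col4a3-/- and 8.46, 8.47 and 8.31 in Col4a3-/-OPN-/- hearts, with differences of -0.02, 0.10 and 0.08.

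Ndufaf8, the partner of the arginine hydroxylase Ndufaf5, read 7.64, 7.66 and 7.49 in wild type, 7.75, 7.26 and 6.93 in Col4a3-/- and 7.20, 7.58 and 7.39 in Col4a3-/-OPN-/- hearts. Col4a3-/- replicate 1 was again the top heart and replicate 3 the bottom one, and the difference from wild type was -0.28 (adjusted p = 0.728). Ndufaf1, Ndufaf5, Ndufaf6 and Ndufaf7 had differences from wild type of -0.19 to -0.0020 in the Col4a3-/- hearts. Ndufaf2, a paralog of Ndufa12 that holds its place during assembly, was the exception at 0.08.

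Assembly factors without the Nduf name, 12 of 13 measured, are given beside them, with no test between the lists. All 12 were negative in Col4a3-/- against wild type (median -0.29), 10 of 12 were positive in the second comparison (median 0.22), and 0 were called. At an unadjusted p under 0.05, Acad9, part of the complex that assembles the membrane arm, was the 1 gene lower in the first comparison (5.96% of all probe sets were) and 3 genes were higher in the second (8.58%). Tmem126b, of the same assembly complex, had mean log2 signals of 7.15 ± 0.18 in wild type, 6.59 ± 0.71 in Col4a3-/- and 7.43 ± 0.05 in Col4a3-/-OPN-/- hearts (SD, n = 3). All Col4a3-/- values were below all Col4a3-/-OPN-/- values, as for 4 of the 12 genes and 10.1% of all probe sets, and the difference was 0.83 (unadjusted p = 0.0128, limma adjusted p = 0.272). Col4a3-/- replicate 3 was the lowest heart for 10 of the 12, and without it the first median was -0.08 and the second 0.06. Without Col4a3-/- replicate 1 the first was -0.43.

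The other steps that supply the enzyme had 0 calls in any comparison. Of 10 tested genes of iron-sulfur cluster assembly, 6 were positive in Col4a3-/- against wild type, from -0.44 for Isca2 to 0.21 for Lyrm4. Of 12 tested genes of ubiquinone synthesis 9 were negative, from -0.42 for Coq8a (unadjusted p = 0.0179, limma adjusted p = 0.506) to 0.28 for Coq10b. The 13 regulators of respiratory chain genes divided into 7 positive and 6 negative, from -0.55 for the coactivator Ppargc1a (limma adjusted p = 0.506) to 0.28 for Nrf1 (adjusted p = 0.576). The 6 genes of turnover and restraint, such as the protease Lonp1, lay between -0.01 and 0.10.

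Ndufa4, the complex IV subunit with an Nduf name, was steady, at 12.24 ± 0.02 in wild type, 12.22 ± 0.15 in Col4a3-/- and 12.25 ± 0.06 in Col4a3-/-OPN-/- hearts (SD, n = 3). Ndufa4l2, its hypoxia-inducible paralog, which is abundant in pericytes and vascular smooth muscle, had the widest range of all members. It read 7.70, 7.99 and 7.67 in wild type, 7.84, 7.34 and 6.30 in Col4a3-/- and 7.37, 7.78 and 7.60 in Col4a3-/-OPN-/- hearts. Col4a3-/- replicate 3 was lowest by over 1 log2 unit, and replicate 1 was inside the wild type range. The log2 difference was -0.62 (SE 0.31, unadjusted p = 0.0717, limma adjusted p = 0.631), and 0.42 in the second comparison (adjusted p = 0.588). Without Col4a3-/- replicate 3 these were -0.19 and -0.01, and without replicate 1 they were -0.97 and 0.76. All 6 smooth muscle markers were measured and had mean levels of 8.09 to 8.20 in wild type, 7.01 to 7.45 in Col4a3-/- and 7.88 to 8.09 in Col4a3-/-OPN-/- hearts; their part in the Ndufa4l2 values was not tested.

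The clearest feature of the members was the spread among Col4a3-/- hearts. The median SD within a genotype was 0.10 in wild type, 0.26 in Col4a3-/- and 0.10 in Col4a3-/-OPN-/- hearts, against 0.12, 0.21 and 0.14 over all probe sets. Col4a3-/- replicate 1 was the highest of the 9 hearts for 27 of 42 members (14.3% of all probe sets), and Col4a3-/- replicate 3 the lowest for 17 (26.1%). Replicate 1 was above replicate 2 for 39 members and above replicate 3 for 41, Ndufb11 being the exception, where 49.1% and 50.7% of all probe sets were so ordered. These are descriptions with no test, since each heart is 1 sample and the members share it.

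**Figure D3:**
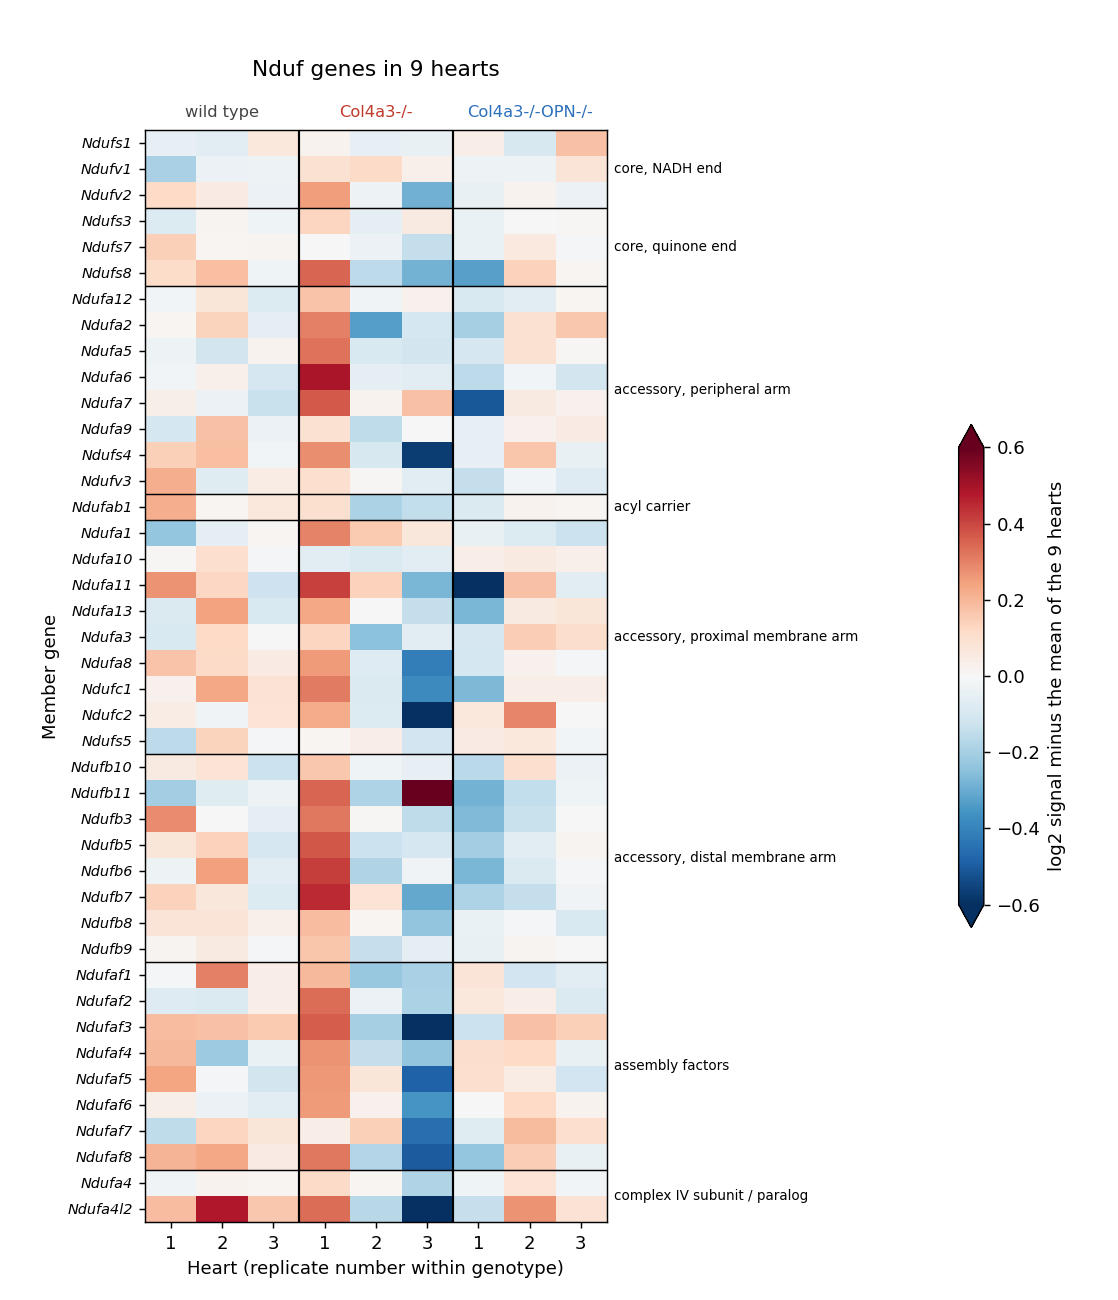
Each cell is the log2 signal of 1 of the 42 genes in 1 heart minus its mean over the 9 hearts, with genes in rows by role and hearts in columns by genotype; the colour scale ends at -0.6 and 0.6. The column of Col4a3-/- replicate 1 is above the mean for 40 of 42 genes and that of Col4a3-/- replicate 3 for 6.

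The distance between those hearts depended on the member. The median of Col4a3-/- replicate 1 minus replicate 3 was 0.43 log2 units, and the range was -0.25 for Ndufb11 to 1.55 for Ndufa4l2. After Ndufa4l2 came Ndufaf3 at 1.24, Ndufs4 at 0.85, Ndufc2 at 0.83 and Ndufaf8 at 0.82. The core subunits Ndufv1, Ndufs1 and Ndufs3 were nearly level at 0.06, 0.07 and 0.07, while the core subunits Ndufs8 and Ndufv2 stood at 0.63 and 0.54. By role the median distance was 0.57 for assembly factors, 0.43 for the distal membrane arm, 0.37 for the proximal membrane arm and 0.30 for peripheral-arm accessory subunits.

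Set against the wild type, Col4a3-/- replicate 1 was above all 3 hearts for 31 of 42 members (26.5% of all probe sets) and replicate 3 below all 3 for 27 (38.7%). Col4a3-/-OPN-/- replicate 1 was below all wild type hearts for 27 (25.1%) and lowest of the 9 for 12 (9.53%). The median deviation of the members from their mean over 9 hearts was 0.26, -0.06 and -0.15 in Col4a3-/- replicates 1, 2 and 3, and between -0.09 and 0.07 in the 6 other hearts. Col4a3-/- replicates 1 and 3 both had high Xist and low Eif2s3y, Bmp10 and Ucp1. Of the 6 brown fat markers, 1 was the highest of the 9 hearts in replicate 1 and 2 were the lowest. In replicate 3, 0 of the 6 were above their mean over the 9 hearts and 0 were the lowest. In replicate 3 the median deviation was -0.20 for cardiomyocyte, -0.92 for smooth muscle and -1.55 for fibroblast markers, and it was the lowest of the 9 hearts for 7 of 12, 5 of 6 and 4 of 7 of them. The fibroblast markers were divided in this heart, as 3 of the 7 lay above their mean over the 9 hearts and 1 was the highest of the 9. Endothelial markers had a median deviation of 0.02 there, with 2 of 7 highest and 2 lowest. The part of these markers in the order of the hearts was not tested, nor was that of airway markers in Col4a3-/-OPN-/- replicate 1.

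The order was shared by other nuclear genes of mitochondrial proteins. Col4a3-/- replicate 1 was above replicate 3 for 38 of 42 tested subunits of complexes II to V (median distance 0.26) and for 63 of 70 mitochondrial ribosomal proteins (median distance 0.50). It was above for 6 of 13 regulators of respiratory chain genes. No test of a difference between these lists was made.

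**Figure D4:**
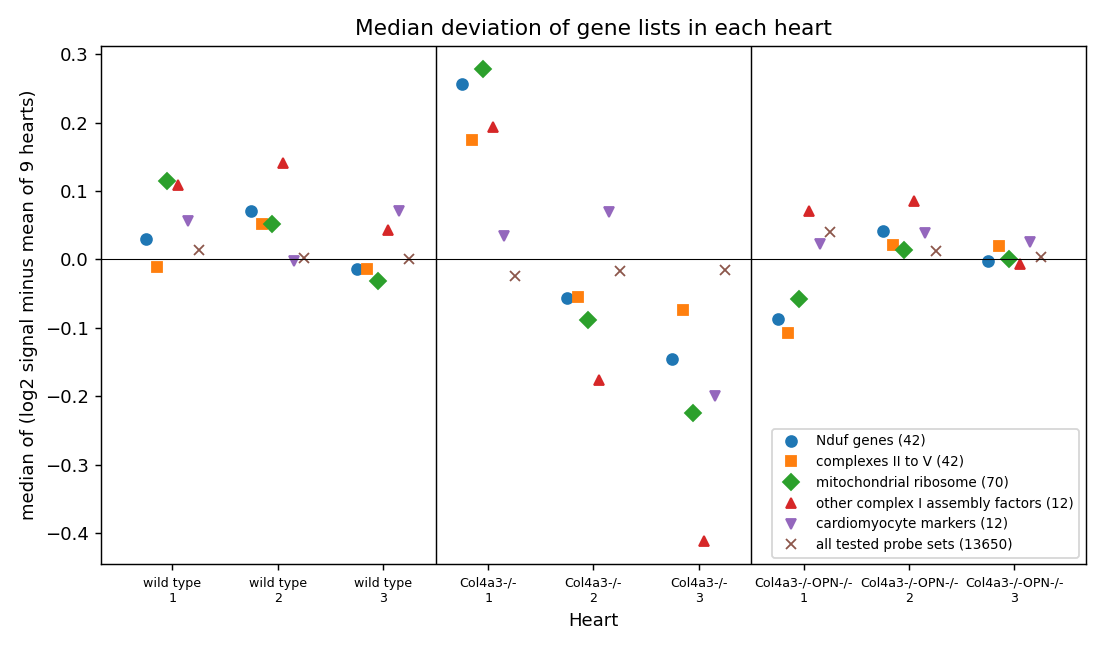
Median over each gene list of the log2 signal minus its mean over the 9 hearts, for each heart; the number of probe sets per list is in the legend. The Nduf genes are at 0.26 in Col4a3-/- replicate 1 and -0.15 in replicate 3, and complexes II to V, the mitochondrial ribosome and the other assembly factors lie on the same side of 0 in both hearts.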

How the data were processed

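Whole-heart RNA from 9 mice was measured on 1 array per heart. The deposited log2 signals are the authors' RMA output, according to the submitters' processing notes; the software version is not given in the sources used here. RNA isolation was by the mirVana PARIS kit, per the labels. The table held 33793 probe sets, of which the platform annotation gave 23521 a single symbol and 1814 several, with 8458 not listed. All 42 member identifiers were found in the RefSeq table of GRCm38.p6.

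The 13650 probe sets with 1 symbol and a mean above 5.21 (the median over all probe sets; 13085 genes) entered 1 limma fit of all 9 arrays, moderated with a trend on signal (R 4.3.3, limma 3.58.1). Moderated two-sided p-values were adjusted by the Benjamini-Hochberg method over all tested probe sets, at 0.05. All p-values are limma's, from this fit or, where an alternative is named, from that fit, and intervals are at the 95% level. No exact permutation test was run, since its smallest p with 3 hearts per genotype is 0.1. The number of arrays limits the precision (median standard error 0.15 per difference). The script was tested on simulated data. Labels share replicate numbers, and the fit with the number as a block was an alternative.

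Members and lists were chosen with earlier results of these data known. Signals per heart are given for the 6 core subunits measured, the 5 members with the smallest p and the 3 highest and 3 lowest differences in each comparison, and the 3 widest members. Alternatives were the scaling, filter, moderation, array weights, arrays in the fit, probe set choice, covariates and each heart left out. Those for the medians of the distal membrane arm and of the assembly factors were added after seeing the data.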

Additional observations from a re-analysis of the deposited data

How the results depend on the processing

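Over all alternatives run, 0 members were called in any comparison; the smallest adjusted p in limma was 0.173, 0.110 and 0.712 in the 3 comparisons and 0.239 in the F-test. With Bmp10 as a covariate the members' median was -0.20 in Col4a3-/- minus wild type (5 of 42 positive) and 0.16 in Col4a3-/-OPN-/- minus Col4a3-/- (35 positive). The values over all probe sets in that fit are not given here, so no shift particular to the members is shown. Bmp10 was clearly low in 2 Col4a3-/- hearts only, so this covariate overlaps with genotype, and the cause was not tested. With hearts left out in turn the medians ran from -0.15 to 0.062 in the first comparison, from -0.11 to 0.09 in the second and from -0.10 to -0.01 in the third; the ends of the first 2 ranges were the fits without Col4a3-/- replicate 1 or 3. The stricter filter left 40 members.

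Replicate numbers recur between genotypes, and deviations of same-numbered hearts correlated between -0.19 and 0.23. Hearts of the same genotype also differed in atrial, brown fat and airway markers, which can hide a shared litter or day. These correlations therefore cannot decide whether the number is a pairing. With the replicate block 0 members were called, and the probe sets called in Col4a3-/-OPN-/- minus Col4a3-/- went from 6 to 0.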

Other observations

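Probe sets shared by an Nduf gene and another gene, left out above, can be given only as values of both. The brighter of those annotated to Ndufs6 and Ndufs6b (mean log2 signal 11.5) had differences of 0.06, -0.13 and -0.07 in the 3 comparisons, and that of Ndufb4 with its copies Ndufb4b and Ndufb4c (7.63) had -0.04, -0.14 and -0.18. The probe set of Ndufb2 and Adck2 had 0.10, -0.18 and -0.08. That of Ndufs5 and its pseudogene (9.37) had 0.03, -0.24 and -0.21, where the dim probe set used for Ndufs5 had -0.01, 0.05 and 0.04.

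Nnt, the mitochondrial transhydrogenase that makes NADPH from the NADH that complex I also consumes, ran from 10.4 to 10.9 log2 units over the 9 hearts.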
